A study of Mus musculus with 24 samples.

Results

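Adult mouse microglia carrying a tamoxifen-inducible Cre at the Cx3cr1 locus were compared with Cre-negative microglia in animals that had received tamoxifen and no cuprizone, the state called naive. The groups were formed from the labels, and the comparison used 6 of the series' 24 RNA-seq libraries, 3 Cre+ and 3 Cre-, and 17579 genes passed the filter on low counts of the 49315 in the count table. The study deletes Dicer1 in adult microglia with the tamoxifen-activated recombinase creERT2 expressed from Cx3cr1, and asks what the loss does in the healthy brain and during demyelination and remyelination. Cells were sorted as CD45 intermediate and CD11b+, and all 24 libraries come from tamoxifen-injected mice. The labels give the Cre status (Cx3cr1 Cre+ or Cre-) and the state, and name the Cre+ group as the Dicer1 knockout; they give no Dicer1 allele for either group and the series calls the libraries biological replicates without tying any of them to an animal. Each p-value tests a difference against the spread among libraries, which may therefore not be the spread among animals. That spread was estimated over all 24 libraries together, with 16 residual degrees of freedom, and not from the 6 naive libraries alone. The other 3 states are demyelination (6 weeks of cuprizone) and remyelination (6 weeks of cuprizone and 6 weeks of normal diet) with tamoxifen either at the start or at the peak, week 5 of cuprizone. Naive and demyelination mice are also labelled as given tamoxifen at the start, so that timing does not set the first remyelination design apart from them. Because every Cre+ library carries creERT2 at Cx3cr1 and is meant to have lost Dicer1, insertion and deletion cannot be told apart. Cx3cr1 is also active in other mononuclear phagocytes, so the driver is not limited to microglia.

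Dicer is the RNase III enzyme that cuts hairpin precursors into mature microRNAs of the canonical pathway. A mature microRNA is loaded onto an Argonaute protein, which recruits a TNRC6 scaffold and through it the CCR4-NOT and PAN deadenylases, so that transcripts with a matching 3′ UTR are repressed and shortened at the poly(A) tail. Matching rests mainly on the seed, the bases near the 5′ end of the microRNA. Microglia are the resident macrophages of the brain parenchyma, kept in their surveying state by signals such as TGF-beta, and they take up a disease-associated programme of lipid handling and lysosomal genes when myelin or neurons are damaged. The gene-count libraries do not measure mature microRNAs, so the seeds below were read against messenger RNAs.

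The 4 microRNAs whose matched genes had the highest shares of rises are shown, miR-99a, miR-92a, miR-142a-3p and miR-29a, chosen after their values were seen, together with let-7a because the list of its targets is described below. The capitals mark bases 2 to 8, the seed, written 5′ to 3′ as RNA, with sequences from RefSeq on GRCm38.p6. miR-205 is the comparison family, an epithelial microRNA not expected in microglia.
mmu-let-7a-5p: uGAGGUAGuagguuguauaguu
mmu-miR-99a-5p: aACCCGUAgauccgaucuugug
mmu-miR-29a-3p: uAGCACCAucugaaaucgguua
mmu-miR-92a-3p: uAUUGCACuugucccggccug
mmu-miR-142a-3p: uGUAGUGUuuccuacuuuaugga
mmu-miR-205-5p: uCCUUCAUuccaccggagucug
The let-7 seed pairs with CTACCTC in a transcript, and 5 target sites in called genes are shown with that match in capitals, in the transcript's direction, from GENCODE M21 3′ UTRs on GRCm38. An A directly after the capitals, opposite the first base of the microRNA, makes the longest canonical type of site.
Map4k3, chr17:80580805-80580834, - strand: aaataatttagttaCTACCTCatacaaaca
Tgfbr1, chr4:47410829-47410858, + strand: ggaggctggttgttCTACCTCactgagaga
Igf2bp2, chr16:22059465-22059494, - strand: cacacaaataaaagCTACCTCaggtgtttt
Hmga1, chr17:27563278-27563307, + strand: cctctgttcacaaaCTACCTCtggacggtt
Limd2, chr11:106158295-106158324, - strand: ccttgtctccccatCTACCTCtgcccctta
The first 4 genes were higher in Cre+ and Limd2 was lower, as given below with their levels.

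The libraries held 19476284 to 44526670 counts on genes. Microglial markers were abundant in all 6, with P2ry12, the purinergic receptor, at 9335 to 13318 CPM, the read count scaled to library size by TMM, and Csf1r, the CSF-1 receptor, at 12915 to 16902 CPM. A principal component analysis of the 1000 most variable genes placed 78.0% of the variance on a first axis that separated the genotypes, and 11.4% on a second axis on which Cre+ replicate 1 stood apart at -14.97 against 6.07 to 6.23 in the other Cre+ libraries. Ribosomal protein genes took 0.361% to 0.602% of counts in Cre- and 0.344% to 0.382% in Cre+.

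Cx3cr1, the fractalkine receptor whose locus holds the recombinase, measured 9273, 9692 and 12254 CPM in Cre- replicates 1 to 3 and 227.1, 4432 and 4571 CPM in Cre+ replicates 1 to 3. All 3 Cre+ libraries were below all 3 Cre- libraries, and replicate 1 of Cre+ had 2.18% of the mean Cre- level against 42.6% and 43.9% in the others. The difference did not pass the test (log2 fold change -1.76 ± 0.97 SE, edgeR adjusted p = 0.197; without Cre+ replicate 1, -1.21, adjusted p = 0.378). The labels give Cre+ replicate 1 the same genotype as the other two, and whether its Cx3cr1 alleles or its recombination differ from theirs was not tested. Without it 4098 genes were called over the whole table, against 4982 with it. Dicer1 itself measured 18.55, 11.1 and 12.07 CPM in Cre- and 21.81, 22.06 and 24.31 CPM in Cre+. The Cre+ libraries were the higher ones, with no overlap (0.72 ± 0.16, adjusted p = 0.00151). Counts are summed over the whole gene, so Dicer1 counts do not show whether any deleted segment was absent, and they do not check the label.

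Between the genotypes, 4982 of 17579 genes (28.3%) passed the edgeR quasi-likelihood test at an adjusted p of 0.05, with 2580 higher in Cre+ (14.7%) and 2402 lower (13.7%). Under DESeq2 size factors the falls outnumbered the rises, with 2339 higher and 2663 lower, and under the DESeq2 test the counts were 2447 and 2829. Differences in parentheses after a gene, with their standard error, and all amounts by which a gene fell are on the log2 scale, Cre+ minus Cre-, and all genes together had a median of -0.01. The median size among the called genes was 0.66 for those that rose and 0.63 for those that fell, and 718 of the rises and 681 of the falls had a log2 change of at least 1 in size. The genotypes did not overlap at 7055 genes (40.1%), including 2343 of the called rises and 2266 of the called falls. A fit that also removed gene-length and GC trends called 2121 of the rises and 1893 of the falls.

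Cebpb, a transcription factor of the C/EBP family, had the largest rise of the genes named by rule. It measured 4.062, 0.7155 and 0.6268 CPM in Cre- and 8.377, 32.09 and 39.31 CPM in Cre+. Replicate 1 was the highest of Cre- and the lowest of Cre+, so the groups came nearest there (4.14 ± 1.05, adjusted p = 0.00706; fitted to the 6 naive libraries alone, adjusted p = 0.0531). Skint3, a member of the Skint family, rose from 2.141, 1.616 and 1.155 CPM to 32.2, 15.05 and 13.27 CPM (3.64 ± 0.40). Alb, the gene for serum albumin, rose from 1.757, 1.325 and 1.914 CPM to 17.69, 16.77 and 19.88 CPM (3.45 ± 0.34, adjusted p = 2.18e-07). Here the Cre+ values lay close together. Of the 3 plasma protein genes tested, Alb rose and Apob, an apolipoprotein, fell by 1.82. Coro2a, an actin-binding coronin, lay between 15.16 and 19.2 CPM without Cre and between 90.69 and 134.9 CPM with it (2.75 ± 0.27). Otud1, a deubiquitinase, measured 28.21, 8.241 and 10.33 CPM and then 83.63, 107.3 and 132.7 CPM (2.83 ± 0.44, adjusted p = 0.000179). Of the abundant genes, Itgb5, an integrin of the alpha-v partnership that acts in uptake and TGF-beta activation, measured 707.3, 263.5 and 342.2 CPM in Cre- and 1184, 2249 and 3099 CPM in Cre+ (2.32 ± 0.48, adjusted p = 0.00175). Tbc1d5, a regulator of membrane traffic, lay between 102.1 and 108.4 CPM without Cre and between 344.2 and 443.5 CPM with it (1.92 ± 0.23).

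The falls were led by Ccr1, a chemokine receptor, at 36.17, 35.46 and 30.25 CPM in Cre- and 0.9828, 4.398 and 3.038 CPM in Cre+ (-3.52 ± 0.39, adjusted p = 5.93e-06). The rule that names the largest changes admits only genes at which the genotypes do not overlap. Within Cre+, replicate 1 had the lowest Ccr1 level. Cd22, an inhibitory sialic acid receptor, fell from 18.72, 10.49 and 13.36 CPM to 0.8424, 3.045 and 2.538 CPM (-2.63 ± 0.34). Apoe, the lipid carrier, fell from 958.6, 758.9 and 780.6 CPM to 214.6, 192 and 237.8 CPM (-1.95 ± 0.21, adjusted p = 2.6e-06). Within Cre+ the Apoe values did not single out replicate 1. Ccl3, a chemokine, measured 665.3, 415.8 and 518.8 CPM in Cre- and 178.8, 147.7 and 171.9 CPM in Cre+ (-1.68 ± 0.29). Anxa5, the phosphatidylserine-binding annexin, went from 61.42, 56.28 and 58.82 CPM to 11.75, 17.71 and 12.61 CPM (-2.06 ± 0.16, adjusted p = 1.04e-08). Plin3, a lipid-droplet coat protein, lay between 20.01 and 23.88 CPM without Cre and between 3.323 and 5.533 CPM with it (-2.16 ± 0.17).

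**Figure D1:**
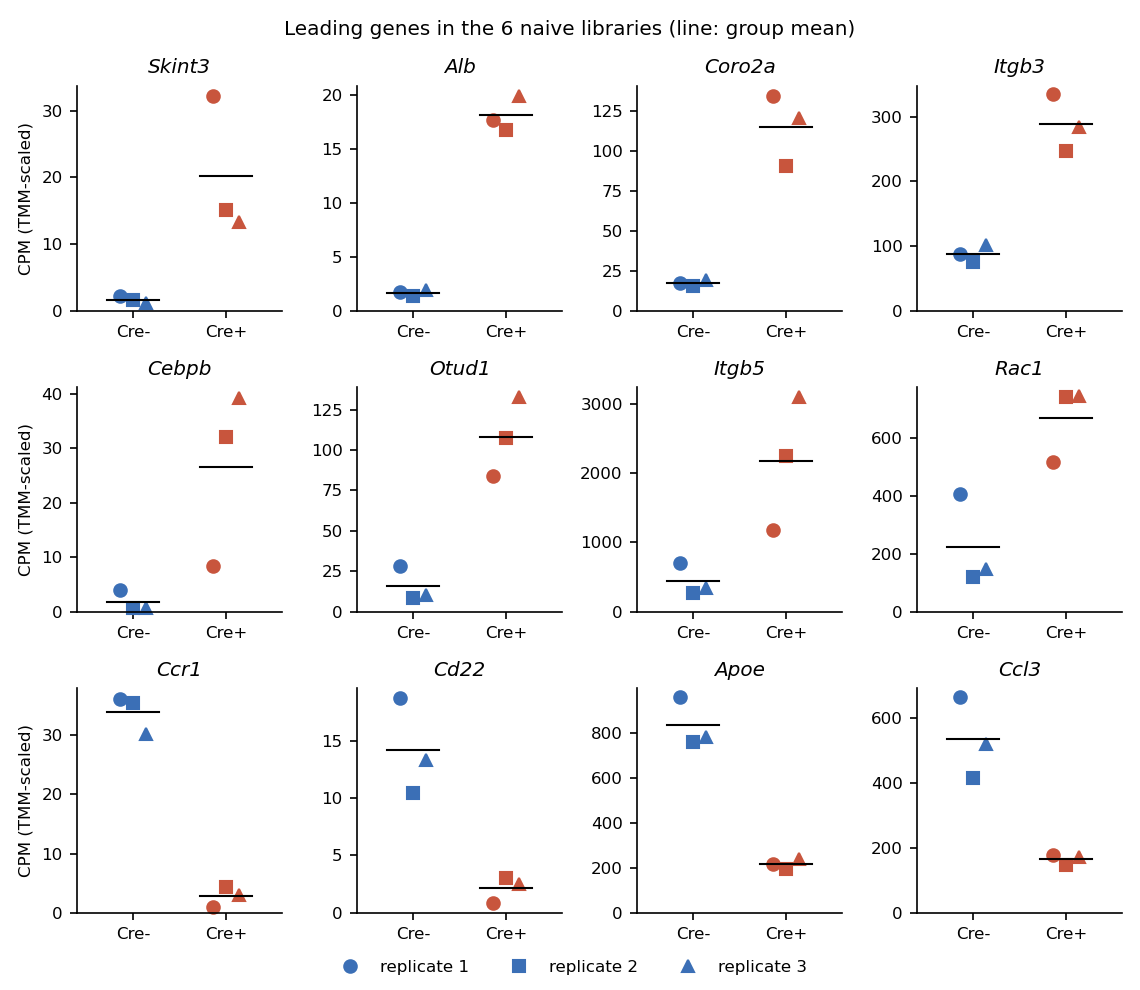
Level of 12 of the named genes in each of the 6 naive libraries, on linear axes from 0 in CPM; symbols give the replicate number and the line the group mean. In the middle row replicate 1 is the highest Cre- library and the lowest Cre+ library, as at 4.062 and 8.377 CPM for Cebpb. In the bottom row all Cre- libraries lie above all Cre+ libraries, and the rule naming the largest changes admits only genes without overlap.

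Replicate 1 of each genotype stood nearest to the other genotype at 611 of the 2580 rises (23.7%), with Cre- replicate 1 the highest Cre- library and Cre+ replicate 1 the lowest Cre+ library, as for Cebpb and Otud1. These 611 genes had a median log2 fold change of 0.98, and 19 of them (3.11%) were also called higher in demyelination and 42 (6.87%) in remyelination with tamoxifen at the peak, where 5.69% and 6.99% of all genes were called higher. The other 1969 rises had a median of 0.57, with 379 (19.2%) and 687 (34.9%) called higher in those states. Of the 15 largest rises, 7 had this order (Cebpb, Chst2, Otud1, Tesk1, Ano8, Mogs and Dnaaf5). Replicate 1 of each genotype was nearest to the other at 0 of the 15 largest falls and at 231 of all falls (9.62%). Cre+ replicate 1 was the lowest of its group in 14 of the 15 largest falls. It was the lowest in 48.2% of all 2402 falls and in 39.8% of all 2580 rises, and the highest in 27.3% and 36.3%. Among the 15 largest rises it was the lowest of its group in 7 and the highest in 7. The share of all tested genes with replicate 1 of each genotype nearest to the other was not counted. The labels name no batch, and the cause of this order was not tested.

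Of the machinery that makes microRNAs, Dicer1 apart, 2 of 12 genes rose and 0 fell, against 14.7% and 13.7% over all genes. They were Xpo5, which exports the precursors, between 27.72 and 29 CPM without Cre and between 35.79 and 43.77 CPM with it (0.50), and Srrt, a cap-complex partner of primary-transcript processing (0.43). Of the silencing complex downstream, 15 of 22 genes rose and 0 fell, with a median of 0.41. Ago2, the Argonaute that can cut its target, measured 22.83, 17.12 and 16.5 CPM in Cre- and 39.45, 40.23 and 41.81 CPM in Cre+ (1.11 ± 0.14, adjusted p = 2.37e-06). Its Cre+ libraries were all above the highest Cre- library. Tnrc6c, a scaffold, measured 22.01, 14.5 and 14.48 CPM and then 34.73, 35.5 and 37.96 CPM (1.10 ± 0.14). Tnrc6a (0.74), Tnrc6b (0.64), Ago4 (0.82), the deadenylase subunits Cnot6 (0.85) and Cnot3 (0.54), and the PAN subunits Pan2 (0.46) and Pan3 (0.43) also rose. The list's summed level lay between 1272 and 1382 CPM without Cre and between 1566 and 1606 CPM with it. With the length and GC trends removed, 10 of the 22 were called higher, with a median of 0.29. Of the transcripts that host microRNAs, Mir22hg fell (-0.65; adjusted p = 0.0813 with the trends removed, and 0.0537 without Cre+ replicate 1 and 0.0888 without Cre+ replicate 3) and the other 7 did not pass the test.

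Across the transcriptome, longer messages tended to be higher in Cre+. Among 10227 genes with a mean log2 CPM of at least 2, the rank correlation of exon length with log2 fold change was 0.32, across genes that are not independent replicates, and 0.05 once the length and GC trends were removed. With the genes in 4 bins of near-equal number by exon length, rises made up 5.61% of the shortest bin and 26.1% of the longest, while falls made up 15.8% and 8.19%. In 4 such bins by 3′ UTR length, over 13386 genes with an annotated 3′ UTR, rises made up 10.5% of the bin with the shortest UTRs and 24.9% of that with the longest, and falls 22.6% and 10.2%. Of these 13386 genes 17.4% rose and 15.6% fell. The 2886 genes holding a match to 0 of the 21 seeds of microRNAs known from microglia rose in 9.94% and fell in 22.5% of cases, with a median UTR of 317 bases. The 325 genes holding matches to 10 or more rose in 30.8% and fell in 6.15% of cases, with a median UTR of 6129 bases.

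Each of the 21 seed families had a higher median among genes holding a match than among genes without one, by 0.06 to 0.16 with a median of 0.10. With the length and GC trends removed the differences were 0.01 to 0.11 with a median of 0.05, and 0.01 to 0.03 with a median of 0.02 in 6 families of other tissues. For let-7a, 1420 genes held CTACCTC, 323 rose (22.7%) and 164 fell (11.5%). Of 2065 genes holding the miR-29a match TGGTGCT 25.7% rose. The shares were 27.8% of 1017 for miR-92a (GTGCAAT), 27.4% of 926 for miR-142a-3p (ACACTAC) and 29.7% of 182 for miR-99a (TACGGGT). For miR-205 (ATGAAGG) 22.3% of 1604 rose. All were searched on the transcript strand, and a gene can hold matches to several seeds. Averaged over the 4 bins of 3′ UTR length, the difference ran from -0.01 to 0.11, with a median of 0.04, and 18 of the 21 families were above 0. The 6 families of other tissues, such as miR-205, also had higher medians with a match (0.07 to 0.09). Averaged over the UTR length bins they ran from -0.06 to 0.08, with 2 of 6 above 0. In the other 3 states the median difference of the 21 families was 0.00 in demyelination, 0.01 with tamoxifen at the start and 0.03 with tamoxifen at the peak.

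**Figure D2:**
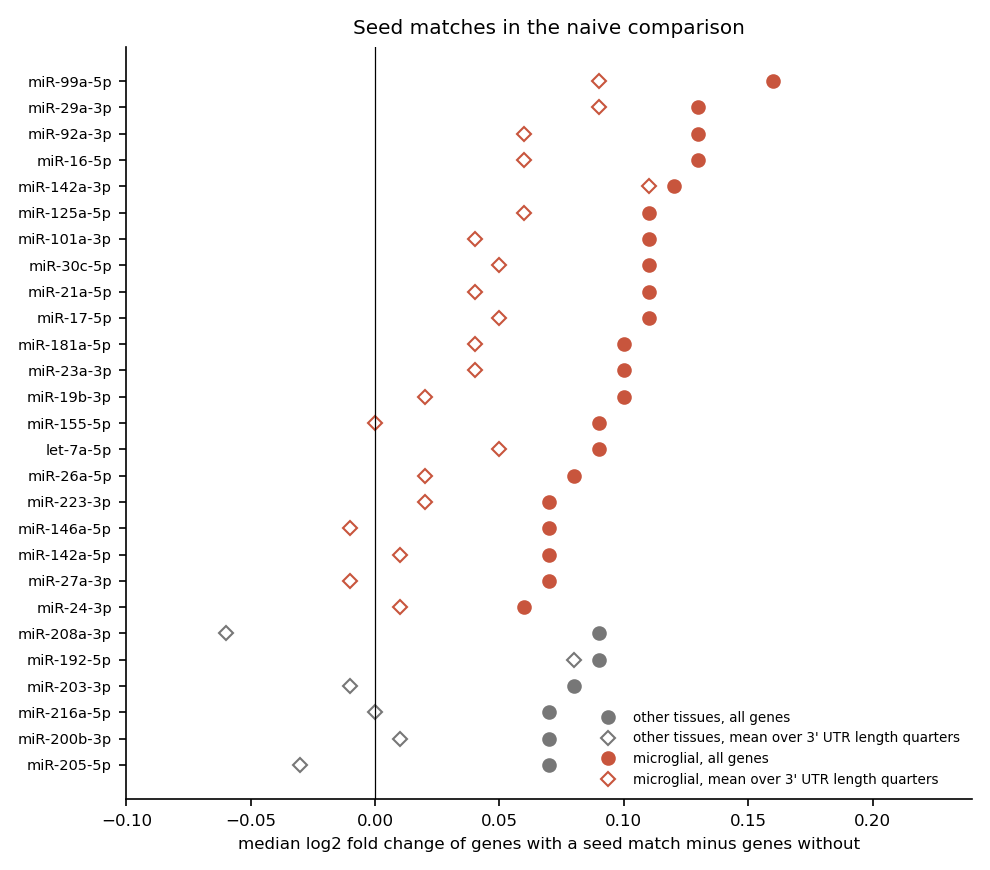
Median log2 fold change of genes with a seed match minus that of genes without, on the log2 scale, 1 row per family; filled circles give the difference over all genes and open diamonds its mean over the bins of 3′ UTR length. The 21 microglial families lie at 0.06 to 0.16 over all genes, and the 6 other-tissue families at 0.07 to 0.09.

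The let-7 list, genes reported as let-7 targets, had 14 of 31 higher, 2 lower and a median of 0.20 against -0.01 over all genes. Map4k3, a kinase upstream of stress signalling, measured 32.44, 22.05 and 23.75 CPM in Cre- and 48.62, 69.78 and 79 CPM in Cre+ (1.34 ± 0.22, adjusted p = 0.000143). Tgfbr1, the type I TGF-beta receptor, measured 2100, 2431 and 2990 CPM and then 4669, 4092 and 4502 CPM (0.82 ± 0.15, adjusted p = 0.000196). Every Cre+ library exceeded every Cre- library for both. Hmga1, a chromatin architectural protein, rose (0.78), as did Igf2bp2, an RNA-binding protein (0.54). Limd2 fell, with Cre- between 409.6 and 424.5 CPM and Cre+ between 270.1 and 312.5 CPM (-0.50). In the 24 list genes with a match in the 3′ UTR the median was 0.32 and 12 were called higher, and in the 7 without one the median was -0.04 and 2 were called higher. These groups were not matched for 3′ UTR length. Over all genes with a 3′ UTR, the let-7a difference averaged over the 4 bins of UTR length was 0.05, with 3 bins above 0. Of genes listed for miR-17 to miR-92 and miR-15/16, 12 of 22 rose and 0 fell, among them E2f1, the cell cycle transcription factor, from 2.58, 2.729 and 2.144 CPM to 6.084, 10.68 and 11.58 CPM (1.93 ± 0.22). That count was 7 without Cre+ replicate 3 or without Cre- replicate 2. Of genes listed for miR-155 and miR-146a, 6 of 19 rose and 1 fell, with a median of 0.11. That median was -0.03 with the length and GC trends removed, and also -0.03 without Cre- replicate 2, with the same counts called. These lists were drawn up with earlier results of these data known.

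Of the homeostatic microglial list, 7 of 28 rose and 6 fell, with a median of 0.01. Fcrls, an Fc receptor-like protein, fell from 4673, 5310 and 4909 CPM to 1362, 2572 and 2281 CPM (-1.26 ± 0.16). Sparc, a matrix-binding protein, rose from 4717, 4975 and 3547 CPM to 7933, 7411 and 7036 CPM (0.76 ± 0.13). Serpine2, a protease inhibitor, fell (-0.96) and Pde3b, a phosphodiesterase, rose (1.41). Csf1r had a log2 fold change of 0.14 and did not pass the test. Of 26 transcription factors of the lineage, 7 rose and 3 fell, 1 without Cre+ replicate 2 or without Cre- replicate 3: Junb fell (-0.88) and Cebpa (1.15) and Klf2 (1.56) rose, the last from 40.4, 14.92 and 30.48 CPM to 96.59, 70.8 and 84.11 CPM.

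Most genes of the disease-associated microglial list fell, 16 of 28 with a median of -0.66 against 13.7% falls over all genes, and 1 rose, the cathepsin Ctsl (0.44), with 0 higher without Cre+ replicate 1, without Cre- replicate 3 or with the length and GC trends removed. Cd63, a tetraspanin of late endosomes, measured 501.3, 456.4 and 451.4 CPM in Cre- and 172, 164.3 and 165.6 CPM in Cre+ (-1.49 ± 0.12, adjusted p = 1.4e-08). The lowest Cre- library was above the highest Cre+ library, and the 3 values of each group lay close together. Cst7, an inhibitor of cathepsins, fell from 21.63, 17.04 and 13.79 CPM to 5.71, 4.833 and 4.307 CPM (-1.82 ± 0.25), Lpl, which releases fatty acids, fell by 1.36, and the cathepsins Ctsb and Ctsd fell by 0.88 and 0.71. The list's summed level lay between 34730 and 37262 CPM without Cre and between 25385 and 25616 CPM with it. Of the list of lipid efflux and storage genes, 6 of 25 rose and 7 fell: Plin3 and Plin2 (-1.53) fell with Apoe and Lpl, and Abca1, the cholesterol exporter, rose (0.73). Cholesterol synthesis had 0 of 24 higher and 7 lower (median -0.38). Of 45 lysosomal genes, 16 fell and 5 rose, 3 without Cre+ replicate 1.

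Of the chemokines, 9 of 17 fell and 0 rose, with a median of -1.09, and their sum lay between 1647 and 2075 CPM without Cre and between 795.4 and 811.8 CPM with it. Ccl4, a close relative of Ccl3, fell from 578.4, 379.3 and 551.8 CPM to 156.7, 159 and 168.6 CPM (-1.64 ± 0.25). Ccl24, an eosinophil attractant, lay between 3.794 and 5.697 CPM without Cre and between 0.2808 and 0.7974 CPM with it (-3.08 ± 0.32). Cxcl16 fell by 1.09. Of the chemoattractant receptors, 8 of 17 fell, with Ccr1 among them, and 1 rose, C5ar2, the other C5a receptor beside C5ar1 (-0.74), with Cre- between 108 and 109.9 CPM and Cre+ between 285 and 342.4 CPM (1.54 ± 0.19).

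Genes of the interferon response had 11 of 34 lower and 1 higher (median -0.31). Mx1, an antiviral GTPase, fell from 9.496, 10.1 and 10.13 CPM to 3.416, 4.978 and 4.269 CPM (-1.21 ± 0.16), and Ifit1 fell by 1.29, while Oasl2 was the 1 called higher (0.57). That count was 0 with DESeq2 size factors, with the replicate number as a block, with the length and GC trends removed, and without any 1 of the 6 libraries but Cre- replicate 3. MHC class II genes and their helpers had 7 of 14 lower and 0 higher, among them H2-DMa, a peptide-loading chaperone (-0.85 ± 0.12). H2 gene counts can be shared with near-identical copies, and how reads that match several places were counted is not given in the sources used here. For MHC class I, 3 of 17 were called higher and 1 lower, against 1 and 3 without Cre+ replicate 2, 1 and 1 without Cre+ replicate 3, with DESeq2 or in the 6 naive libraries alone, 5 and 1 with the length and GC trends removed, and 3 and 2 without Cre- replicate 3. Of 20 cytokine and inflammasome genes 9 fell, with Tnf (-1.11), and 4 rose, with Nlrp3 (0.70) and the decoy receptor Il1r2 (2.90); without Cre+ replicate 3 the falls were 5. Of 24 NF-kB factors and regulators 5 rose and 4 fell, with the subunit Nfkb1 up (0.52) and the inhibitor-like Nfkbiz down (-1.38). Those counts were 3 and 2 without Cre+ replicate 1, and the falls numbered 7 with DESeq2 size factors. The rises were also 3 without Cre+ replicate 3 or Cre- replicate 2, and the falls 2 without Cre- replicate 3. Toll-like receptors had 2 of 21 higher and 4 lower, and Tlr1 fell by 1.31.

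Of the phagocytosis genes, 11 of 23 rose and 2 fell, with a median of 0.31. With the length and GC trends removed 10 rose and 4 fell, with a median of 0.22. Itgb3, a partner of alpha-v integrin, measured 87.83, 74.68 and 101.2 CPM in Cre- and 335, 247 and 283.9 CPM in Cre+ (1.72 ± 0.27, adjusted p = 0.000165), and Itgav, the alpha-v chain, rose too (1.08 ± 0.15). Elmo1, a regulator of the GTPase Rac, rose (0.63) and Msr1, a scavenger receptor, fell (-0.93). TGF-beta signalling had 13 of 27 higher and 0 lower, with a median of 0.34, and 8 higher without Cre- replicate 2. Its counts were 11 higher and 2 lower with the length and GC trends removed, with a median of 0.24. Its ligand Tgfb1 rose (0.62), as did Acvr2a, an activin receptor, from 28.76, 31.14 and 34.91 CPM to 85.74, 73.84 and 78.57 CPM (1.33 ± 0.16), the inhibitors Smad6 (1.46) and Smad7 (0.50) and the ubiquitin ligase Smurf2 (0.95). Complement and Fc receptor genes had 7 of 20 lower and 2 higher, Fcgrt, the neonatal Fc receptor, with Cre- between 194.3 and 223.1 CPM and Cre+ between 44.18 and 71.94 CPM (-1.81 ± 0.16). The 2 called higher were 0 without Cre+ replicate 1 and 1 without Cre- replicate 2, without Cre- replicate 3 or in the 6 naive libraries alone. Of the growth factors, 7 of 22 fell and 2 rose, Pdgfb among the rises (1.09); 1 was called higher without Cre+ replicate 3 or Cre- replicate 3, and 4 without Cre- replicate 1 or with the length and GC trends removed.

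**Figure D3:**
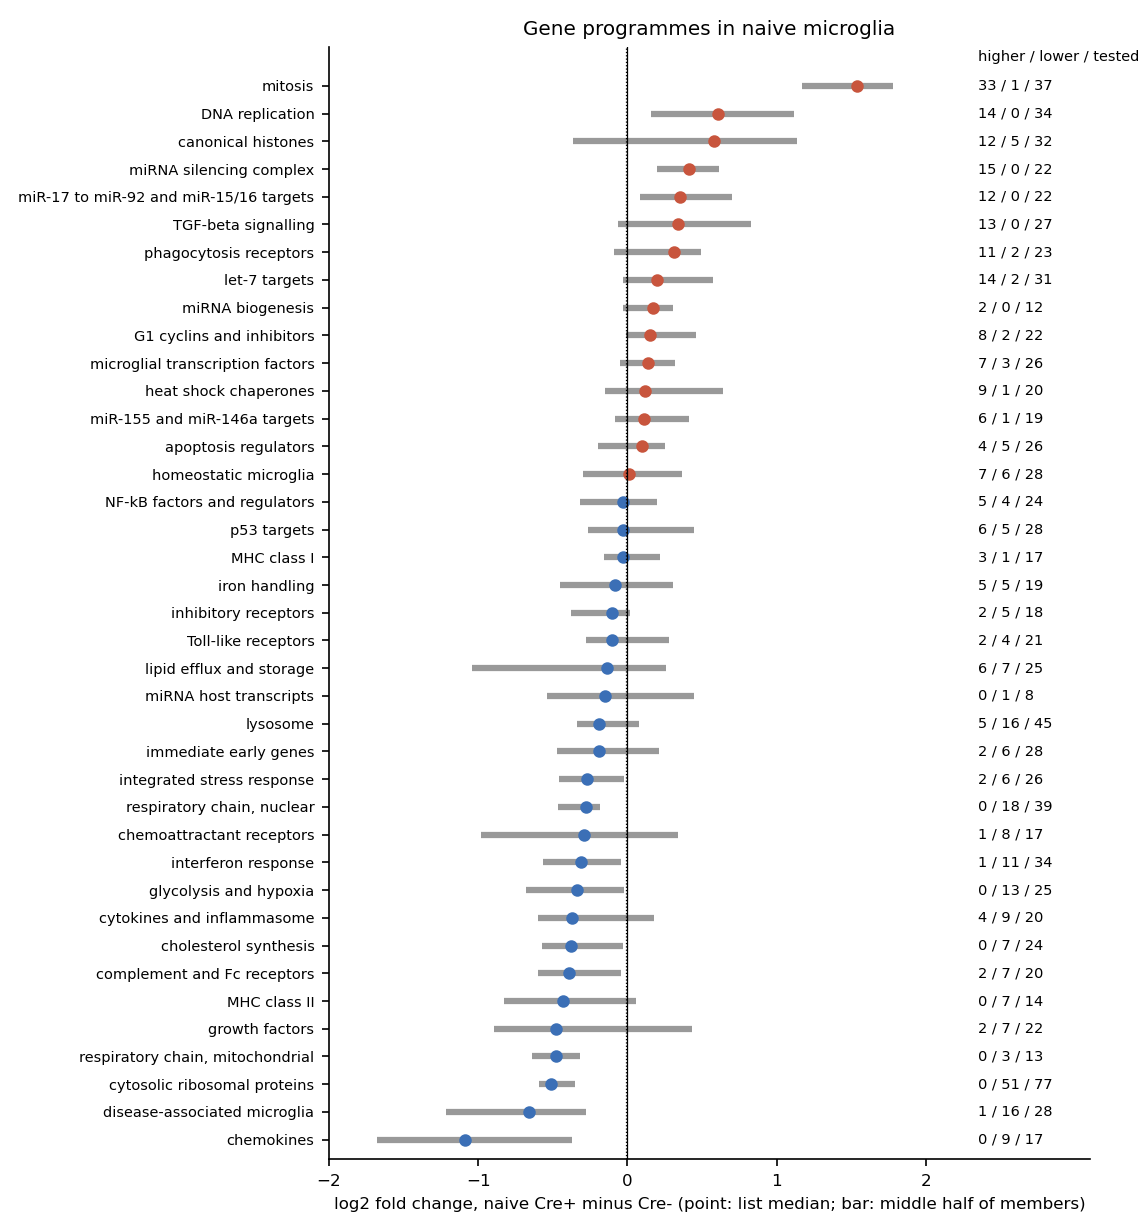
Median log2 fold change of the 39 gene lists (points) with the middle part of each list's members (bars) and, at the right, the counts called higher, called lower and tested. The list medians run from -1.09 for chemokines to 1.54 for mitosis.

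Cell cycle genes were high in 2 of the 3 Cre+ libraries. Of 37 mitosis genes, 33 were called higher and 1 lower, with a median of 1.54, and Cre+ replicates 2 and 3 each exceeded all Cre- libraries at 36 genes, while Cre+ replicate 1 did so at 5. Mki67, the proliferation antigen, measured 2.799, 3.63 and 4.652 CPM in Cre- and 3.463, 18.2 and 18.35 CPM in Cre+ (1.85 ± 0.39, adjusted p = 0.00169). Top2a, the mitotic topoisomerase, measured 5.16, 6.757 and 6.829 CPM and then 4.82, 30.57 and 28.96 CPM (1.78 ± 0.44). In both, Cre+ replicate 1 lay inside or below the Cre- range. The list's sum lay between 123.2 and 139 CPM without Cre, at 99.64 CPM in Cre+ replicate 1, and 371.9 and 344.3 CPM in replicates 2 and 3. Fitted to the 6 naive libraries alone, 9 of the 37 were called higher, without Cre+ replicate 1 the count was 35, without Cre+ replicate 2 it was 21 and without Cre+ replicate 3 it was 23. For DNA replication 14 of 34 rose and 0 fell, 24 of 34 without Cre+ replicate 1, with 7 in the 6 naive libraries alone, 8 without Cre+ replicate 2 or Cre- replicate 2 and 9 without Cre+ replicate 3. Among them were E2f1 and Tk1, a thymidine kinase, at 6.367, 6.333 and 5.312 CPM and then 8.564, 14.35 and 13.85 CPM (1.04 ± 0.19). The 37 mitosis genes include 1 that fell in all 3 Cre+ libraries, Espl1 or separase, by 0.76. Of 22 genes of G1 control 8 rose, with the inhibitor Cdkn1b (0.88), and 2 fell, with Myc, which fell by 1.40; without Cre+ replicate 2 the rises were 4. Of the p53 target list, 6 of 28 rose and 5 fell, and 2 fell without Cre+ replicate 1 and 3 without Cre+ replicate 3, Cre- replicate 1 or Cre- replicate 3.

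**Figure D4:**
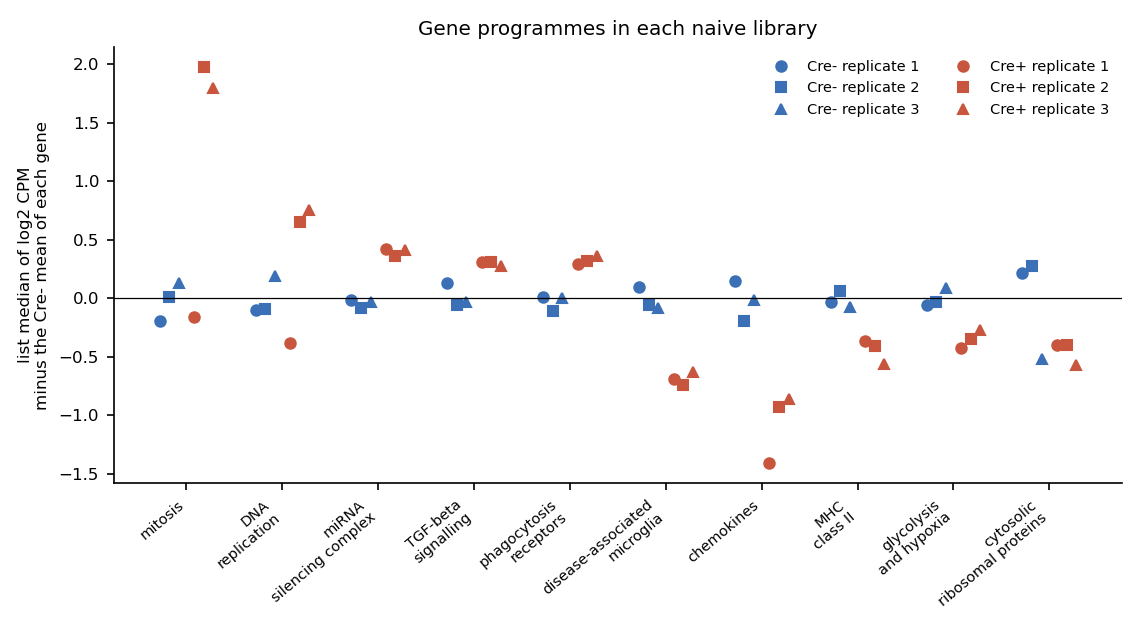
List median of log2 CPM minus each gene's Cre- mean, for 10 gene lists in each of the 6 naive libraries (colour gives the genotype, symbol the replicate). Mitosis stands at -0.16 in Cre+ replicate 1 and at 1.98 and 1.80 in Cre+ replicates 2 and 3, while the disease-associated list is at -0.63 to -0.74 in all 3 Cre+ libraries.

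Chaperones of the heat shock response had 9 of 20 higher and 1 lower, with 0 lower without Cre+ replicate 1, Cre+ replicate 3, Cre- replicate 2 or Cre- replicate 3, and 3 without Cre- replicate 1. Hspa1b measured 257.3, 195.6 and 261 CPM in Cre- and 1704, 1405 and 1631 CPM in Cre+ (2.73 ± 0.31, adjusted p = 8.53e-06), and Hspa1a, a near-identical copy, rose similarly (2.69 ± 0.35), so how their reads were divided is uncertain. Hsp90aa1, the inducible HSP90, rose from 185.3, 170.9 and 145.9 CPM to 514.6, 487.8 and 500.9 CPM (1.58 ± 0.14, adjusted p = 5.07e-08). It was the 1 gene called in the same direction in all 4 states. Hspa5, the endoplasmic reticulum chaperone, fell (-0.36), as did Xbp1 (-0.71) and Herpud1 (-0.75) of the stress response there. Of the integrated stress response, 2 of 26 rose and 6 fell. Glycolysis and hypoxia genes had 0 of 25 higher and 13 lower (median -0.34), among them Eno1, an enolase (-0.73), and Pfkfb3, which makes a glycolytic activator (-1.47). Immediate early genes, which many stimuli induce rapidly, had 6 of 28 lower and 2 higher, among the falls Jun (-0.72) and Dusp1 (-0.89); without Cre+ replicate 2 or without Cre- replicate 3 the falls were 2, and Jun was not called. Their part in the other falls was not tested.

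Cytosolic ribosomal protein genes had 0 of 77 higher and 51 lower (median -0.51). Their sum was 6210 and 6482 CPM in Cre- replicates 1 and 2, 3990 CPM in Cre- replicate 3, and 3749 to 4207 CPM in Cre+. Cre- replicate 3 thus sat with the Cre+ libraries; without it 72 of the 77 were called lower, without Cre- replicate 2 the count was 22, without Cre- replicate 1 it was 29, without Cre+ replicate 3 it was 28, in the 6 naive libraries alone it was 24, and with length and GC trends removed it was 29. Nuclear-encoded respiratory chain genes had 18 of 39 lower and 0 higher, with a median of -0.28. Without Cre- replicate 3, 26 fell and 1 rose, and without Cre- replicate 2, 14 fell. With length and GC trends removed 14 fell and 1 rose, with a median of -0.15.

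Defining markers of other cell types were measured beside these lists. Astrocyte markers had 4 of 12 lower, 0 higher and a median of -0.72, with 1 lower without Cre+ replicate 1, Cre+ replicate 2 or Cre- replicate 2, and 2 without Cre+ replicate 3 or Cre- replicate 3. Their sum lay between 445.9 and 583.5 CPM without Cre and between 301.6 and 352.9 CPM with it, most of it Slc1a3, a glutamate transporter (-0.56). Their part in the result was not tested. Border macrophage markers had 1 of 11 higher and 1 lower (Mrc1 -1.06). Their sum lay between 295 and 357.2 CPM without Cre and between 340 and 399.1 CPM with it. The count called higher was 0 with DESeq2 size factors, with the DESeq2 test and in the naive libraries alone. It was also 0 without Cre+ replicate 3 or Cre- replicate 2. The count called lower was 2 with the DESeq2 test or without Cre- replicate 3. Monocyte markers had 1 of 12 higher and 2 lower. Neutrophil markers had 0 of 12 in either direction, with sums between 165.4 and 492.6 CPM without Cre and between 131.5 and 514.2 CPM with it. The 4 T, NK and B cell markers measured summed to 1.372 CPM or less in every library. Oligodendrocyte markers summed to between 793.9 and 912.3 CPM without Cre and between 782.3 and 869.3 CPM with it, with 0 of 11 called. Ependymal and choroid plexus markers varied widely between libraries, with 0 of 8 called and a median of -0.83. Their sums were 879.3, 257.7 and 456.1 CPM in Cre- replicates 1 to 3 and 517.6, 21.07 and 344.8 CPM in Cre+. Endothelial markers had 1 of 12 higher and 1 lower, and mural cell markers 0 of 10 in either direction. In a sorted bulk sample, fewer cells of a type and less RNA per cell cannot be told apart.

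Near the recombinase locus, 109 tested genes had their start within 5 Mb of Cx3cr1, with 18 higher and 17 lower (32.1% called). Within the same distance of Dicer1, 70 were tested, with 14 higher and 7 lower (30%). Both of these shares are near the 28.3% over all genes. Within 10 Mb, 32.1% of 156 genes were called around Cx3cr1 and 35.7% of 154 around Dicer1. The genes within 10 Mb of Dicer1 on chromosome 12 include Hsp90aa1, the 1 gene called in the same direction in all 4 states. Whether its position has a part in its rise was not tested.

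Each of the other 3 states has its own Cre- libraries, and every test of a difference below uses the same 6 naive libraries. The naive effect differed from that in demyelination at 2769 genes (15.8%), from remyelination with tamoxifen at the start at 1802 (10.3%) and from remyelination with tamoxifen at the peak at 390 (2.22%). In that order the naive effect was the higher one at 7.78%, 6.5% and 1.04% of all genes and the lower one at 7.97%, 3.75% and 1.18%. Of the 2580 naive rises, 398 were also called higher in demyelination, 5 in the first remyelination design and 729 in the second, where 1001 (5.69%), 6 (0.0341%) and 1228 (6.99%) of all genes were called higher. Of the 2402 falls, 223, 0 and 452 were called lower, against 611 (3.48%), 0 and 707 (4.02%) of all genes. In the opposite direction, 35 of the rises were called lower in demyelination and 102 of the falls higher, with 1 and 11 for tamoxifen at the peak. Unadjusted edgeR p-values with tamoxifen at the start were also counted. In the naive direction, 102 of the 2580 rises and 426 of the 2402 falls were under 0.05. The share of all genes with such a p was not counted. DESeq2 called 13 of the rises and 17 of the falls there. For 122 genes that rose and 79 that fell, the naive effect was larger in its direction than in each other state, with Plin3, Anxa5, Fcgrt and Ccr1 among those that fell.

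Cebpb had log2 fold changes of 4.14 in naive, -1.09 in demyelination, -0.12 with tamoxifen at the start and 0.25 with tamoxifen at the peak, with a naive minus demyelination difference of 5.23 ± 1.34 (adjusted p = 0.0146). Ccr1 had -3.52, -1.02, -0.63 and -0.45 in the same order. Cst7 fell in naive (-1.82) and rose in demyelination (1.28), a difference of -3.09. Hsp90aa1 was higher in all 4, at 1.58, 0.72, 0.76 and 0.56. The disease-associated list had 16 falls and 1 rise in naive, 1 fall and 7 rises in demyelination, and 7 falls and 0 rises in remyelination with tamoxifen at the peak, and 14 of its 28 genes had a naive effect below that in demyelination by the test of the difference, which placed 7.97% of all genes below. The interferon list had 9 of 34 genes higher and 0 lower in demyelination, and 11 of the 34 had a naive effect below it. The mitosis list had 33 rises in demyelination (median 1.58), 0 with tamoxifen at the start (-0.40) and 36 with tamoxifen at the peak (3.22), and in the test of the difference 21 of 37 were above the start design and 8 below the peak design, against 6.5% and 1.18% of all genes.

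**Figure D5:**
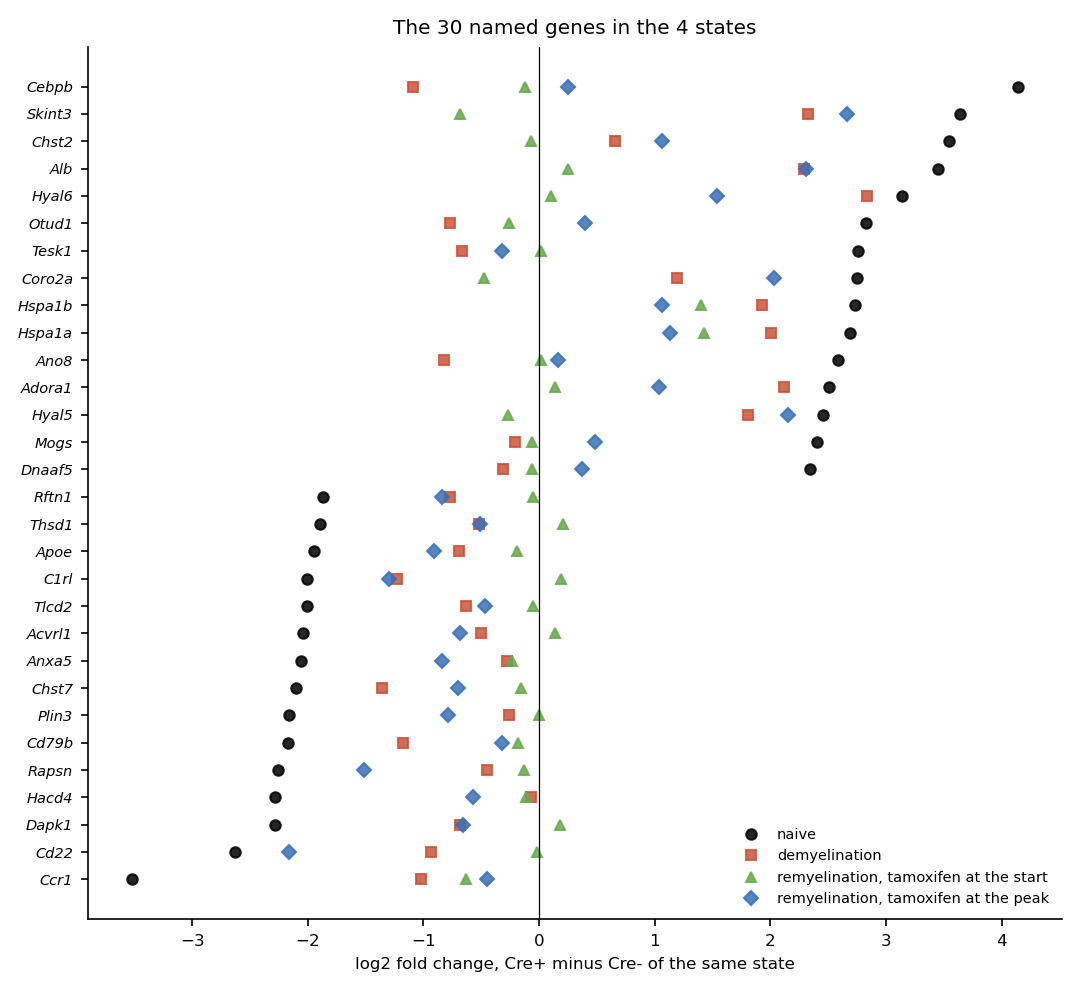
Log2 fold change of Cre+ against Cre- in each of the 4 states, for the 15 largest naive rises and the 15 largest naive falls (1 row per gene, 1 symbol per state). Cebpb is at 4.14 in naive and between -1.09 and 0.25 in the others, and Ccr1 at -3.52 in naive and between -1.02 and -0.45 in the others.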

How the data were processed

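RNA was extracted from sorted microglia and sequenced after ultra-low-input library preparation, per the labels. The authors deposited 1 table of raw read counts per gene for 24 libraries. Per the submitters' processing notes, the tools were Trimmomatic 0.36, STAR 2.5.2b, featureCounts of Subread 1.5.2 and DESeq2, on GRCm38. No source used here gives the strand setting or the treatment of multi-mapped reads, so counts of overlapping, antisense or near-identical genes are uncertain. Names and coordinates came from GENCODE M21, which matched 49056 of 49315 identifiers.

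Genes were kept by edgeR's filterByExpr over the 8 groups, and TMM-scaled counts of all 24 libraries were fitted together with edgeR 4.0.16 (R 4.3.3; robust quasi-likelihood, 2-sided F tests, 16 residual degrees of freedom). The contrasts were naive Cre+ minus Cre- and its difference from each other state, with Benjamini-Hochberg adjustment over 17579 genes and a threshold of 0.05. Library sizes of 19476284 to 44526670 counts set the precision. The code was tested on simulated data. Seed matches are to bases 2 to 8 in the longest 3′ UTR of at least 50 bases.

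Named genes were Dicer1, Cx3cr1, the 15 largest rises and falls without overlap at a mean log2 CPM of at least 2, the 8 largest at 7 or more, up to 4 of the smallest p per list, and 6 per direction for each difference between states; sex-linked, erythroid, immunoglobulin and unnamed genes were left out of all but the lists. Other genes were named after their values were seen. The comparison, lists and rules were chosen with earlier results of these data known, and 5 of the 6 other-tissue families were added after the files were examined. Alternatives were DESeq2 1.42.0, its size factors, other filters, the 6 naive libraries alone (with the other state's, for differences), a GC and length offset, a replicate block and leaving out each library. A few genes are not reported here.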

Additional observations from a re-analysis of the deposited data

Results flagged for a closer look

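The effect of Cre+ differed between the naive state and another state, by the test of the difference itself (edgeR, adjusted p of 0.05), at 2769 genes for demyelination, 1802 for remyelination with tamoxifen at the start and 390 for remyelination with tamoxifen at the peak. The values below are differences between the log2 effects, naive minus the other state, so a positive value means a naive effect further up.

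Against demyelination the genes furthest above were Cebpb (5.23), Otud1 (3.60), Tesk1, a kinase (3.43), Ano8 (3.42), Postn, the matrix protein periostin (3.25), and P3h2, a collagen-modifying enzyme (3.12). Those furthest below were Cst7 (-3.09), the protease Htra3 (-3.02), Ccr1 (-2.50), Ctla2b (-2.25), Hacd4 (-2.21) and Haao, an enzyme of tryptophan breakdown (-2.20). Postn rose in naive (1.10) and fell in demyelination (-2.15), and Htra3 fell in naive (-0.88) and rose in demyelination (2.14).

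Against remyelination with tamoxifen at the start, Skint3 (4.32), Cebpb (4.26), Chst2, a sulfotransferase (3.62), Coro2a (3.23), Alb (3.20) and Otud1 (3.09) were furthest above. Ccr1 (-2.89), Cd22 (-2.60), the kinase Dapk1 (-2.47), C1rl (-2.19), the receptor Acvrl1 (-2.18) and Hacd4 (-2.17) were furthest below.

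Against remyelination with tamoxifen at the peak, Tesk1 (3.07), Otud1 (2.44), Crebzf (2.09), Dvl1 of the Wnt pathway (2.02), Esr1, an oestrogen receptor (1.94), and Ncoa1, a nuclear receptor coactivator (1.84), were furthest above. Ccr1 (-3.07) and 5 cell cycle genes were furthest below, namely Pbk (-2.61), the inhibitor Cdkn1a (-2.57), Mki67 (-2.52), Ccnb1 (-2.07) and Racgap1 (-1.94). Cebpb, Otud1, Tesk1, Ano8 and Chst2 are among the genes at which replicate 1 of each naive genotype lay nearest to the other genotype.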

How the results depend on the processing

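The count of genes called between the naive genotypes stayed within 1.5 times of 4982 in every alternative run, from 3792 in the 6 naive libraries alone to 5276 with DESeq2, and from 3734 to 4742 when each library was left out. With the replicate block 4902 genes were called (2558 higher, 2344 lower). The residuals of same-numbered naive libraries correlated at -0.13, 0.07 and 0.28, so the numbers were not taken to pair the samples. DESeq2 size factors shifted the median of all genes in the difference from demyelination to -0.08 and moved the share above from 49.4% to 37.3%, with 38.1% in the DESeq2 test and 37.5% without the low-count filter; leaving out each library gave 1882 to 3006 genes. The difference from tamoxifen at the start was 2200 genes with DESeq2, and with each library left out it ranged from 1173, without its Cre+ replicate 1, to 1887, without naive Cre- replicate 1. The difference from tamoxifen at the peak was 1096 with DESeq2, 889 without the filter, 210 with the replicate block and 199 with that block and the GC and length offset. With each library left out it ranged from 86, without its Cre- replicate 2, to 985, without naive Cre- replicate 1. The causes were not tested. Stability was also counted for 188 of the named genes: Dicer1, Cx3cr1, the largest rises and falls, and the list genes named by rule that were called. Of their 1504 values under other settings 52 lost their call, of 1128 with a library left out 53 did, and 0 reversed. Most of these genes were selected for being called, which favours few losses. In the 6 naive libraries alone Cebpb was 4.08 (edgeR adjusted p = 0.0531), Rac1 1.58 (0.108) and Tmed7 1.77 (0.0741); with the replicate block Cebpb was 4.04 (adjusted p = 0.0786). Of the 52 list medians, 35 of 416 values under other settings moved by more than the spread between libraries, as did 42 of 312 with a library left out. Of the lists' counts of rises or falls, 22 of the 30 that were 1 to 3, and 18 of the 45 that were 4 or more, moved by over 1.5 times in at least 1 alternative. Depth limits calls at genes of low count.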

Other observations

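Iron handling genes split, with 5 of 19 higher and 5 lower, against 3 higher without Cre- replicate 1 or 3, 2 lower without Cre+ replicate 1 and 3 lower without Cre- replicate 3. Slc40a1, the iron exporter ferroportin, rose from 389.2, 428.2 and 535.5 CPM in Cre- to 846.8, 775.2 and 858.7 CPM in Cre+ (log2 difference 0.87 ± 0.16), and Tfrc, the transferrin receptor that brings iron in, rose too (0.52). Ftl1, the ferritin light chain that stores it, fell from 2261, 1872 and 2627 CPM to 1175, 1133 and 1147 CPM (-0.97 ± 0.13), and Ncoa4, which carries ferritin to the lysosome, fell (-0.48). In each of Slc40a1 and Ftl1 the genotypes did not overlap.

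Regulators of apoptosis also moved in both directions, with 4 of 26 higher and 5 lower, against 2 higher without Cre- replicate 1 and 3 lower without Cre+ replicate 3 or Cre- replicate 2. Mcl1, a survival factor of the BCL2 family, measured 217.4, 83.1 and 97.42 CPM in Cre- and 279.5, 420.5 and 440 CPM in Cre+ (1.52 ± 0.33); in the 6 naive libraries alone the edgeR adjusted p was 0.066. The pro-death genes Bmf (0.87) and Bcl2l11 (0.33) rose, and Bax (-0.39) and Bad (-0.64) fell. Inhibitory receptors had 2 of 18 higher and 5 lower, with Lag3 lower (-1.63) and Siglece higher (0.70). Of 32 canonical histone genes, whose near-identical copies make their counts uncertain, 12 rose and 5 fell, 3 without Cre+ replicate 2, Cre- replicate 1 or Cre- replicate 2.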
